A study of Mus musculus with 8 samples.

Results

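The genes described here were chosen by gene name, with earlier results of these data known. They are 33 marker genes of microglia, the resident macrophages of the brain. Of these, 32 were found on the arrays through the RefSeq accession of a probe, among 20660 genes named in that way, and they are covered by 43 probes. Cd68, the lysosomal glycoprotein of macrophages, was matched to no probe by accession and has no value here, and Ikzf1 was too dim on too many arrays to be tested. The remaining 31 genes were tested. They were ordered by role into 12 homeostatic genes, 3 complement genes, 11 phagocytic and immune receptor genes, 4 signalling genes shared by all leukocytes and 1 transcription factor.

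RNA of whole hippocampus was measured on 1 array for each of 8 mice, which were labelled as C57BL6/J and 3 months old, with no treatment given and no sex stated. The 4 Ts1Cje mice belong to a model of Down syndrome in which a translocation adds an extra copy of many distal chromosome 16 genes and removes the far end of chromosome 12, and Sod1 is disrupted on the translocated segment. The 4 wild-type mice were disomic littermates, and the labels do not say which arrays belong to the same litter. The translocation is carried by every cell of the animal, so the comparison does not separate microglia from the cells around them. None of the 32 matched genes lies on chromosome 16 or 12.

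Levels are given as the log2 of the background-corrected spot signal relative to the 75th percentile of the same array. A value below 0 therefore marks a probe dimmer than that percentile and not an absent transcript, and levels of different probes cannot be set against each other. Between 59.9% and 63.1% of the probes on an array were well above background. The correlation between any 2 arrays over all tested features lay between 0.992 and 0.996. Markers of neurons, astrocytes and oligodendrocytes were above background in both groups, all 6 of each list having passed the filter. The number of arrays, 4 in each group, limits the precision. The p-values set the difference between the genotypes against the spread of these 8 samples within their genotype, moderated over all features.

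Microglia settle in the brain before birth and depend on the receptor Csf1r, whose ligands are Csf1 and, in the forebrain above all, the neuronal cytokine Il34. In the undisturbed brain they express a set of homeostatic genes, such as the purinergic receptor P2ry12, the fractalkine receptor Cx3cr1 and the membrane protein Tmem119. When they meet damage or inflammation, those genes go down while complement, Fc receptors and lysosomal proteases go up. Their C1q tags synapses for removal during hippocampal development, and the pair of Trem2 and its adaptor Tyrobp senses lipids and dead cells. The factor PU.1, encoded by Spi1, and Irf8 bind composite elements with a purine-rich GAGGAA core near many genes of the myeloid lineage.

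The promoter stretches of 6 members are shown because these genes lay at the far ends on 1 array, as described further on: C1qb, C1qc, Ctss and Fcgr3 were highest and P2ry12 and P2ry13 lowest there. The sequences are the 250 bases before the annotated start in RefSeq on GRCm38.p6, written 5′ to 3′ on the strand of the gene, with the core GAGGAA or its reverse complement TTCCTC in capitals. They lie at chr4:136886201-136886450, minus strand (C1qb), chr4:136892915-136893164, minus strand (C1qc), chr3:95526536-95526785, plus strand (Ctss), chr1:171059404-171059653, minus strand (Fcgr3), chr3:59262986-59263235, minus strand (P2ry12) and chr3:59210883-59211132, minus strand (P2ry13).
C1qb: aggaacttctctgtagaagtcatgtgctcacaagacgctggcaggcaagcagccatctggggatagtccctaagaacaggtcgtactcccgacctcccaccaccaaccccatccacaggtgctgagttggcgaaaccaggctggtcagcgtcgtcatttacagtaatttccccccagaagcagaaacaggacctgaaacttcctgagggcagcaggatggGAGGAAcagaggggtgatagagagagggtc
C1qc: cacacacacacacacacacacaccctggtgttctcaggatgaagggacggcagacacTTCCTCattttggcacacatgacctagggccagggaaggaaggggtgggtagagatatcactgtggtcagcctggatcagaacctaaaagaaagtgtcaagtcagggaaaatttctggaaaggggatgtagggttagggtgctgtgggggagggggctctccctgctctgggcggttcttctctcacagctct
Ctss: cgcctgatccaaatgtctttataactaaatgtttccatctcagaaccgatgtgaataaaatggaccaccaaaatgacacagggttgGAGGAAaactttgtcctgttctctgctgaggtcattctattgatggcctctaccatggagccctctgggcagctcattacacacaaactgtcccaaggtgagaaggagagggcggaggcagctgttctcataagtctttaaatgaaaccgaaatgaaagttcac
Fcgr3: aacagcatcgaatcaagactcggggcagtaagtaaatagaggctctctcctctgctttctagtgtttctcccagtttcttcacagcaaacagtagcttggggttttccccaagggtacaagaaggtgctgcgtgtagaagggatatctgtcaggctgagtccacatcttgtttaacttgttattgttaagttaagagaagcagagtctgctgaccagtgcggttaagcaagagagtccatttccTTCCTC
P2ry12: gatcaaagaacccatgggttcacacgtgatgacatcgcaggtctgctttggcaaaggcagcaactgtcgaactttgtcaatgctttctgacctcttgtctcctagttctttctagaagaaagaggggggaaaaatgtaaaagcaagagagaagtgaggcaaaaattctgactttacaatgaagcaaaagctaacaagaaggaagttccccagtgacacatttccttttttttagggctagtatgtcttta
P2ry13: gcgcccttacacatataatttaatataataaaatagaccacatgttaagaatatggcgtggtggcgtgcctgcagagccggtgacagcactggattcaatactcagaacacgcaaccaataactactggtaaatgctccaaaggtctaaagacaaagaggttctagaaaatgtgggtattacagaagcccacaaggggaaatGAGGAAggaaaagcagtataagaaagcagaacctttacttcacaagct
The match began 6 bases before the start in Fcgr3, 30 bases before it in C1qb, 48 in P2ry13, 164 in Ctss and 193 in C1qc.

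A promoter was given for 26 of the 33 listed genes. The core GAGGAA, searched on both strands in the same 250 bases, was found in 17 of these 26 genes and in 18 of their 32 promoters, which is 56.2%, against 23.3% of all 32851 promoters in the table. Besides C1qb, C1qc, Ctss, Fcgr3 and P2ry13, the genes with a match were Aif1, Cd33, Cd53, Cd68, Fcrls, Hpgds, Inpp5d, Itgam, Laptm5, Ptprc, Slco2b1 and Trem2. The longer form GAGGAAGT, which contains the core, was found in the promoters of C1qc, Hpgds and Inpp5d, 9.38% of the 32 member promoters against 2.44% of all promoters. A match is a run of letters and not a measured binding site. In P2ry12 these letters did not occur in the window.

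One array stood apart for these genes. Ts1Cje replicate 1 held the highest level of all 8 arrays for 16 of the 31 genes, which is 51.6%, against 14.4% of all 24025 tested features. It held the lowest level for 8 of the 31 genes, which is 25.8%, against 12.9% of all features. The next most extreme array for the members was Ts1Cje replicate 2, which was highest for 1 gene and lowest for 8. Ts1Cje replicate 4 was never lowest and was highest for 2 genes.

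**Figure D1:**
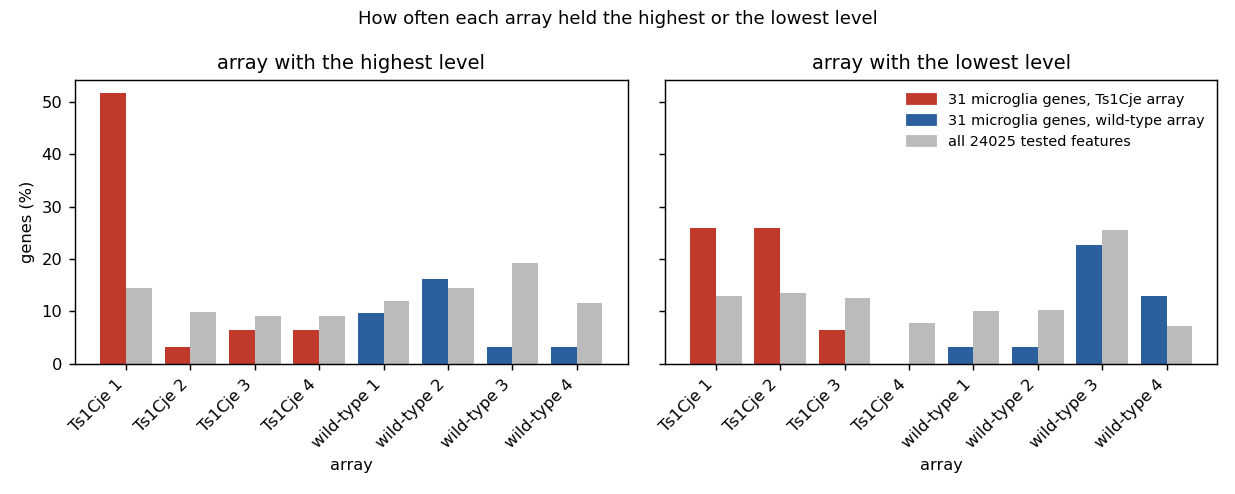
Share of genes (%, vertical axes) for which each array held the highest level (left) or the lowest level (right) of the 8 arrays; red and blue bars are the 31 microglia genes on Ts1Cje and wild-type arrays, grey bars are all 24025 tested features. Ts1Cje replicate 1 was highest for 51.6% of the microglia genes, against 14.4% of all features.

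On the brightest probe of each gene, the direction on that array mostly went with the role of the gene. Ts1Cje replicate 1 was lowest for 7 of the 12 homeostatic genes, namely Cx3cr1, P2ry12, P2ry13, Tmem119, Fcrls, Gpr34 and Selplg, and highest for Csf1r and Slco2b1. It was highest for all 3 C1q genes, for 7 of the 11 phagocytic and immune receptor genes (Tyrobp, Fcer1g, Ctss, Cd14, Fcgr3, Fcgr2b and Cd33), for 3 of the 4 shared leukocyte genes and for Irf8. Ly86 was the only gene of the phagocytic class whose brightest probe was lowest there. On other probes Ts1Cje replicate 1 was lowest for Olfml3 (0.46) and for a dimmer probe of Itgam (-2.75), and it was not highest for Csf1r. It kept its place on the second probes of Cx3cr1, Selplg, Slco2b1 and Laptm5. The class scores below rest on the brightest probes as well. These include Itgam, Siglech and Csf1r, whose brightest probes read far above the other probes of the same gene. The array was described in this way after its values had been seen, and genotype differences below that move without it are given with and without it.

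**Figure D2:**
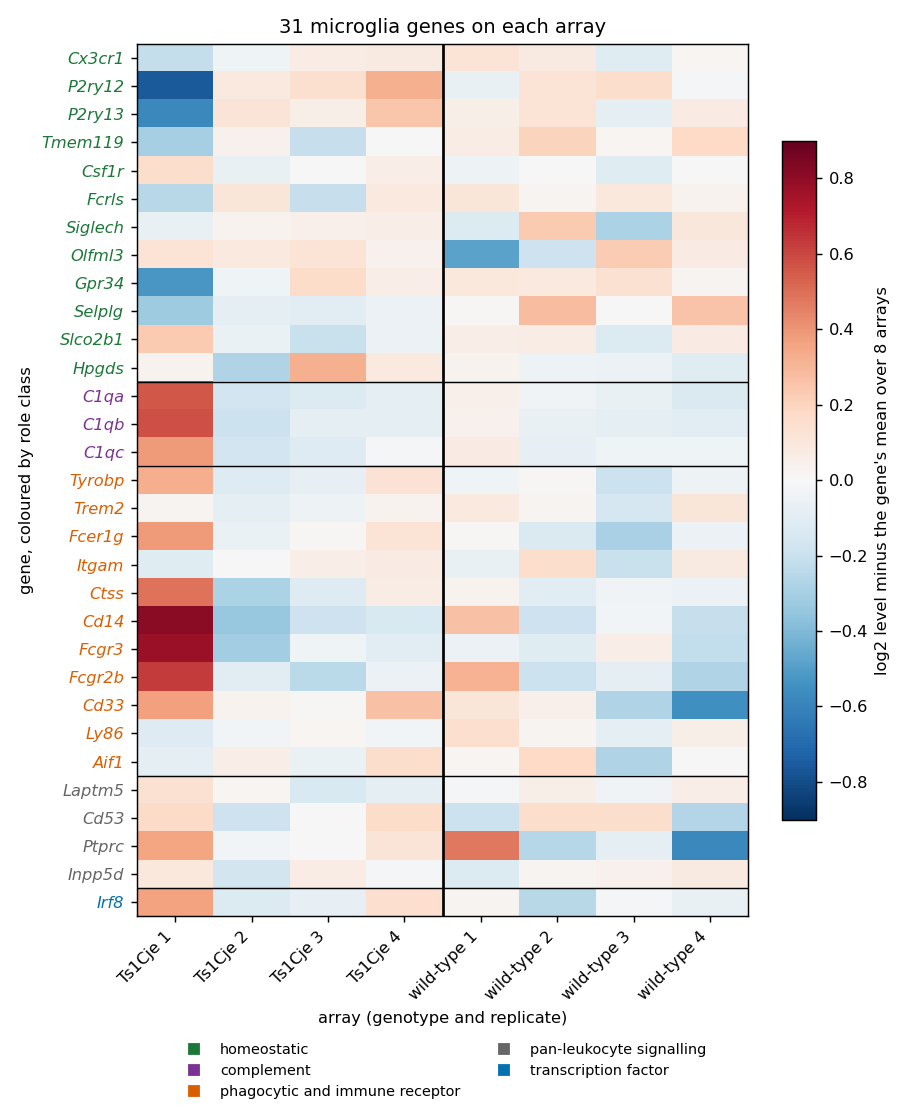
Heat map of the 31 tested microglia genes (rows, coloured and divided by role class) on the 8 arrays (columns, Ts1Cje left of wild-type); colour is the log2 level minus the mean of the gene over the 8 arrays. The column of Ts1Cje replicate 1 is blue for P2ry12, P2ry13 and Gpr34 and red for the C1q genes, Ctss, Cd14, Fcgr3 and Fcgr2b.

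For each class a score was taken as the mean over its genes of the level minus the mean of the gene over the 8 arrays, without a test. On Ts1Cje replicate 1 the homeostatic score was -0.21, while the other 7 arrays lay in the range -0.015 to 0.083. The complement score on the same array was 0.51, against -0.18 to 0.051 on the others, and the phagocytic score was 0.32, against -0.14 to 0.076. The shared leukocyte score was 0.19 there, with the others at -0.17 to 0.046, and that of Irf8 was 0.36, with the others at -0.25 to 0.15. The array thus lay above the range of all others in 4 of the 5 classes and below it in the homeostatic class. The phagocytic score minus the homeostatic score was 0.52 on Ts1Cje replicate 1, 0.090 on wild-type replicate 1, and between -0.16 and -0.030 on the remaining 6 arrays.

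**Figure D3:**
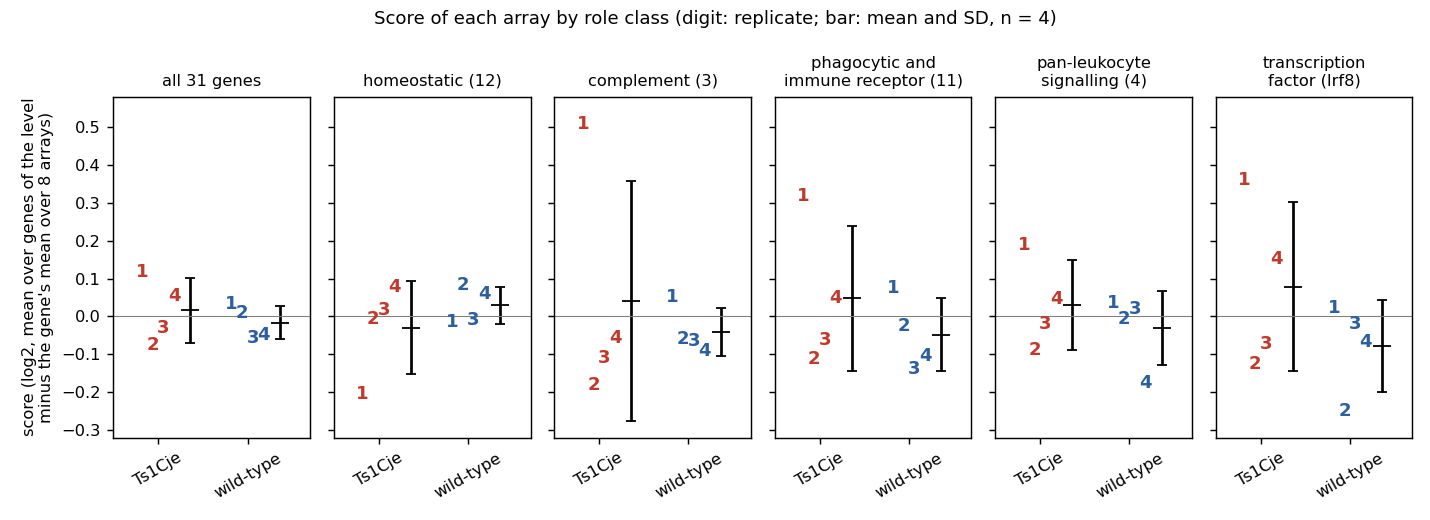
Class scores (vertical axis, log2, mean over genes of the level minus the mean of the gene over 8 arrays) of the 4 Ts1Cje (red) and 4 wild-type arrays (blue); digits are replicate numbers, horizontal marks and bars are the mean and SD of each group. Apart from Ts1Cje replicate 1 the arrays of both genotypes overlap in each of the 6 panels.

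Between the genotypes, none of the 31 microglia genes passed the test, limma with Benjamini-Hochberg adjustment over all 24025 features and a threshold of 0.05, which called 47 features in all, or 0.196% (0.175% higher and 0.0208% lower in Ts1Cje). The lowest adjusted p among the members was 0.457. At an unadjusted p under 0.05 there were 2 members, Selplg and Tmem119, both lower in Ts1Cje, against 4.57% of all features in that direction, 4.15% in the higher direction and 8.73% in both. The groups did not overlap for 1 member, Selplg, lower in Ts1Cje, against 3.7% of all features in that direction, 2.42% in the higher direction and 6.12% in both. In this bulk tissue a smaller number of microglia and less RNA of a gene per cell cannot be told apart.

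The log2 fold change of Ts1Cje over wild-type was above 0 for 19 of the 31 genes and below 0 for 12, with a median of 0.043 and a range from -0.28 to 0.33. Over all tested features 47.3% were above 0, and the median was -0.0072. Without Ts1Cje replicate 1, 15 members were above 0 and 16 below, and their median was -0.025 against -0.010 over all features. The score over all 31 genes was 0.016 ± 0.087 on the Ts1Cje arrays and -0.016 ± 0.043 on the wild-type arrays (SD, n = 4 each). The difference of 0.032 became -0.0019 without Ts1Cje replicate 1.

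The moderated 95% intervals show what size of difference these arrays leave possible. For 25 of the 31 genes the interval held no change as large as 1.5-fold in either direction, and for all 31 it held none as large as 2-fold. Over all features that was so for 20777 and 23223 of the 24025. The 6 genes whose interval reached 1.5-fold were P2ry12, Cd14, Fcgr3, Fcgr2b, Cd33 and Ptprc.

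**Figure D4:**
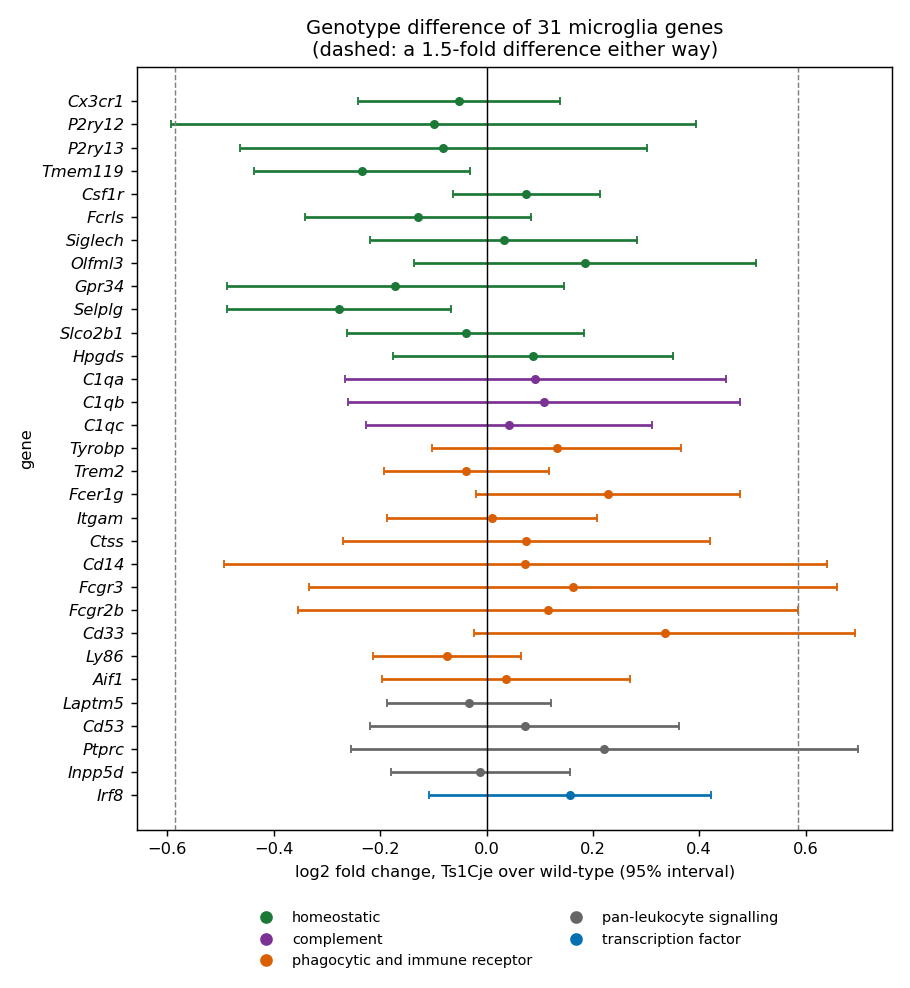
Log2 fold change of Ts1Cje over wild-type (horizontal axis) for the 31 tested microglia genes (vertical axis, coloured by role class), with moderated 95% intervals from 4 arrays in each group; dashed lines mark 1.5-fold either way. The intervals of Selplg and Tmem119 lie wholly below 0, and those of all other genes include 0.

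Among the homeostatic genes, 4 of 12 were above 0 and 8 below, with a median log2 fold change of -0.067. The homeostatic score was -0.029 ± 0.12 on the Ts1Cje arrays and 0.029 ± 0.049 on the wild-type arrays (SD, n = 4 each). Its difference of -0.059 was smaller than the spread between arrays and became -0.0002 without Ts1Cje replicate 1. Selplg and Tmem119 had the smallest p-values of the class and of all members.

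Selplg encodes PSGL-1, the ligand of P-selectin on leukocytes, and is among the surface genes that microglia express more strongly than other brain cells. Its brighter probe had 0.96, 1.19, 1.18 and 1.23 on the Ts1Cje arrays, always in the order of replicates 1 to 4, against 1.29, 1.56, 1.28 and 1.54 on the wild-type arrays. The highest Ts1Cje array lay below the lowest wild-type array. The log2 fold change was -0.28 with a standard error of 0.092, which is 0.825-fold, with an unadjusted p of 0.016 and an adjusted p of 0.457, so the gene did not pass the threshold. A dimmer probe of Selplg had -0.64, -0.43, -0.30 and -0.33 on the Ts1Cje arrays, against -0.07, -0.12, -0.07 and -0.04 on the wild-type arrays. These groups did not overlap either, and with each probe fitted as its own feature this probe had a log2 fold change of -0.35 with a standard error of 0.08 and an adjusted p of 0.23. Without Ts1Cje replicate 1, the lowest array on both probes, the brighter probe had a log2 fold change of -0.22 and an adjusted p of 0.42.

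Tmem119 encodes a membrane protein by which microglia are told from other macrophages. Its level was 0.97, 1.31, 1.06 and 1.27 on the Ts1Cje arrays, against 1.34, 1.47, 1.29 and 1.45 on the wild-type arrays. Ts1Cje replicates 1, 3 and 4 lay below all wild-type arrays, while replicate 2 lay just above wild-type replicate 3. The log2 fold change was -0.23 with a standard error of 0.088 and an adjusted p of 0.52. Without Ts1Cje replicate 1 it was -0.17, with an adjusted p of 0.47.

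P2ry12 encodes the ADP receptor that steers microglial processes to injury. It had -0.38, 0.46, 0.52 and 0.69 on the Ts1Cje arrays, against 0.30, 0.50, 0.53 and 0.35 on the wild-type arrays. The first Ts1Cje array was thus the lowest of all and the fourth the highest, and the genotype difference was -0.10 with all arrays (adjusted p 0.90) and 0.13 without Ts1Cje replicate 1. P2ry13, a related ADP receptor encoded close by on chromosome 3, had -1.22 on Ts1Cje replicate 1 and -0.72 to -0.39 on the other 7 arrays, and its difference was -0.082 with all arrays and 0.10 without that array. Gpr34, a lysophosphatidylserine receptor on the X chromosome, was also lowest there, with -0.76 on Ts1Cje replicate 1 and -0.27 to -0.069 on the others, and its difference was -0.17 with all arrays and -0.025 without it. P2ry13 and Gpr34 were picked for this description after their values had been seen.

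Cx3cr1, which receives fractalkine from neurons, had 3.12, 3.30, 3.40 and 3.42 on the Ts1Cje arrays, against 3.46, 3.42, 3.22 and 3.35 on the wild-type arrays. The groups overlapped, with Ts1Cje replicate 1 lowest, and the log2 fold change was -0.052 (SE 0.083, adjusted p 0.87), or 0.011 without that array. A second probe of Cx3cr1 gave -0.076. Csf1r, the receptor on which microglial survival depends, had 5.17, 4.95, 5.01 and 5.07 on the Ts1Cje arrays, against 4.96, 5.02, 4.90 and 5.02 on the wild-type arrays. Here Ts1Cje replicate 1 was highest, and the log2 fold change was 0.075 (SE 0.060, adjusted p 0.73), or 0.035 without that array. The other probes of Csf1r had log2 fold changes of -0.059 and -0.046, so the sign depends on the probe. On Ts1Cje replicate 1 they read 0.41 and 0.36, far below the 5.17 of the brightest probe. What the brightest probe binds was not tested.

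The remaining homeostatic genes were Fcrls, an Fc receptor-like protein, Siglech, a sialic acid binding lectin, Olfml3, a secreted matrix protein, Slco2b1, an organic anion transporter, and Hpgds, the haematopoietic prostaglandin D synthase. Their log2 fold changes were -0.13 for Fcrls, 0.033 for Siglech, 0.19 for Olfml3, -0.039 for Slco2b1 and 0.087 for Hpgds, with adjusted p-values from 0.69 to 0.94. They were -0.067 for Fcrls, 0.061 for Siglech, 0.17 for Olfml3, -0.13 for Slco2b1 and 0.091 for Hpgds without Ts1Cje replicate 1. In each of the 5 genes the groups overlapped. The second probes of Olfml3, at -0.090, and of Slco2b1, at 0.018, had the opposite sign, and that of Siglech, at 0.059, the same. The brightest probe of Siglech read 7.36 on Ts1Cje replicate 1, against 0.96 on its second probe. What the brightest probe of Siglech binds was not tested.

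**Figure D5:**
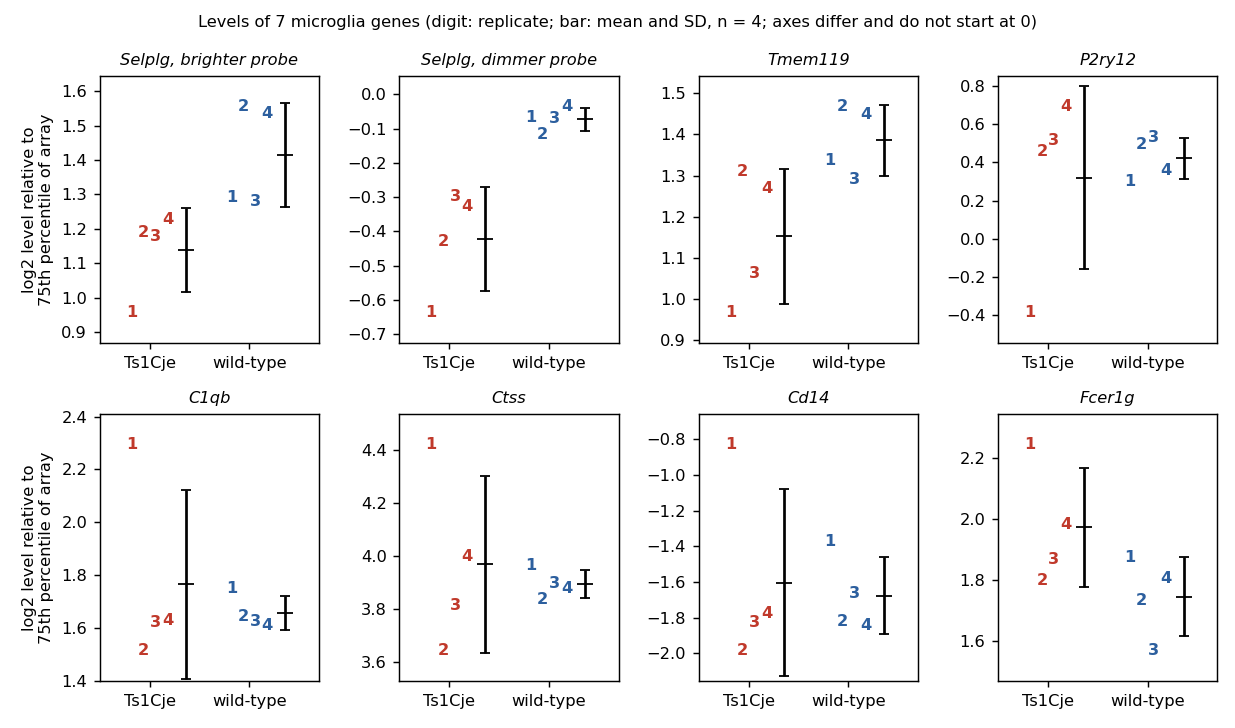
Log2 level over the 75th percentile of its array (vertical axes, each with its own range) of 7 microglia genes, Selplg with both probes, on the 4 Ts1Cje (red) and 4 wild-type arrays (blue); digits are replicate numbers, horizontal marks and bars are the mean and SD of each group. Both Selplg probes separate the groups, whereas Ts1Cje replicate 1 is the lowest of the 8 arrays in P2ry12 and the highest in C1qb, Ctss and Cd14.

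The 3 complement genes encode the chains of C1q, the molecule that starts the classical complement cascade and that microglia supply to the brain. All 3 lie side by side on chromosome 4, and their log2 fold changes were above 0, with a median of 0.092. C1qa had 2.77, 2.04, 2.09 and 2.13 on the Ts1Cje arrays, against 2.26, 2.18, 2.15 and 2.08 on the wild-type arrays. C1qb had 2.29, 1.52, 1.62 and 1.63 on the Ts1Cje arrays, against 1.75, 1.64, 1.62 and 1.61 on the wild-type arrays. C1qc had 2.70, 2.15, 2.20 and 2.31 on the Ts1Cje arrays, against 2.39, 2.25, 2.28 and 2.28 on the wild-type arrays. In each gene Ts1Cje replicate 1 was highest, wild-type replicate 1 was next and Ts1Cje replicate 2 was lowest. The log2 fold changes were 0.092 (SE 0.16) for C1qa, 0.11 (SE 0.16) for C1qb and 0.043 (SE 0.12) for C1qc, with adjusted p-values of 0.87, 0.86 and 0.93. Leaving out Ts1Cje replicate 1 turned all 3 below 0, to -0.079, -0.068 and -0.078 in the same order. The complement score was 0.040 ± 0.32 on the Ts1Cje arrays and -0.040 ± 0.063 on the wild-type arrays (SD, n = 4 each), and its difference of 0.081 became -0.075 without that array.

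In the phagocytic and immune receptor class 9 of 11 log2 fold changes were above 0, with a median of 0.075. Without Ts1Cje replicate 1 this was so for 5 of the 11. The score was 0.048 ± 0.19 on the Ts1Cje arrays and -0.048 ± 0.10 on the wild-type arrays (SD, n = 4 each). The difference of 0.10 became 0.0059 without Ts1Cje replicate 1.

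Cd33, an inhibitory sialic acid receptor of myeloid cells, had the largest log2 fold change of all members. Its level was -2.83, -3.16, -3.19 and -2.93 on the Ts1Cje arrays, against -3.08, -3.15, -3.46 and -3.74 on the wild-type arrays. The spread came largely from wild-type replicates 3 and 4, which lay below every Ts1Cje array. The log2 fold change was 0.33 with a standard error of 0.16, which is 1.26-fold, with an interval from -0.024 to 0.69 and an adjusted p of 0.60. It was 0.27 without Ts1Cje replicate 1. With another background correction (normexp, offset 50) it was 0.14, below the 0.21 of Fcer1g there, so the rank of this dim probe depends on the processing. Fcer1g, the signalling chain that serves several Fc receptors, had 2.25, 1.80, 1.87 and 1.98 on the Ts1Cje arrays, against 1.87, 1.73, 1.57 and 1.81 on the wild-type arrays. The groups overlapped, and the log2 fold change was 0.23 (SE 0.11, adjusted p 0.60), or 0.14 without Ts1Cje replicate 1.

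Tyrobp encodes DAP12, the adaptor through which Trem2 signals. It had 2.83, 2.39, 2.43 and 2.63 on the Ts1Cje arrays, against 2.46, 2.52, 2.31 and 2.46 on the wild-type arrays, with a log2 fold change of 0.13 (SE 0.10, adjusted p 0.72). Trem2, the lipid-sensing receptor, had 2.16, 2.04, 2.09 and 2.16 on the Ts1Cje arrays, against 2.22, 2.16, 1.98 and 2.24 on the wild-type arrays, with a log2 fold change of -0.038 (SE 0.068, adjusted p 0.88). Ts1Cje replicate 1 was the highest array for Tyrobp and inside the range of the others for Trem2. Without it the log2 fold changes were 0.045 for Tyrobp and -0.053 for Trem2. A test of the difference between these 2 genes was not made.

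Fcgr3, Fcgr2b, Ctss and Cd14 lay farthest above their mean on Ts1Cje replicate 1 within this class, and they were picked for description after their values had been seen. Fcgr3, an activating receptor for IgG, was at -0.012 on that array and at -1.11 to -0.73 on the other 7. Fcgr2b, the inhibitory receptor for IgG, was at -2.41 against -3.30 to -2.72. These 2 receptors are close paralogs on chromosome 1 whose signals may not be fully separate. Ctss, the lysosomal cysteine protease cathepsin S, was at 4.42 against 3.65 to 4.00, and Cd14, the co-receptor for lipopolysaccharide, at -0.83 against -1.98 to -1.38. All 4 had log2 fold changes between 0.073 (Cd14) and 0.16 (Fcgr3) with all arrays, and between -0.19 (Cd14) and -0.070 (Fcgr3) without Ts1Cje replicate 1.

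The other genes of the class were Itgam, the CD11b chain of complement receptor 3, Ly86, which encodes the MD-1 partner of a Toll-like receptor homologue, and Aif1, which encodes the microglial stain Iba1. Their log2 fold changes were 0.010 for Itgam, -0.074 for Ly86 and 0.036 for Aif1, with adjusted p-values from 0.73 to 0.98. They were 0.049 for Itgam, -0.048 for Ly86 and 0.071 for Aif1 without Ts1Cje replicate 1. None of the 3 was highest on Ts1Cje replicate 1. The brightest probe of Itgam differed in sign from its other probes, which had -0.075 and -0.034. On Ts1Cje replicate 1 the brightest probe read 6.42, against -2.75 and -3.53 on the others. What the brightest probe of Itgam binds was not tested.

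The signalling genes shared with other leukocytes were Ptprc, which encodes the phosphatase CD45, Cd53, a tetraspanin, Laptm5, a lysosomal membrane protein, and Inpp5d, which encodes the phosphatase SHIP1. Ptprc had -3.48, -3.85, -3.83 and -3.71 on the Ts1Cje arrays, against -3.36, -4.09, -3.91 and -4.41 on the wild-type arrays. The wild-type arrays spanned both ends, replicate 1 being the highest and replicate 4 the lowest of all 8, and the log2 fold change was 0.22 (SE 0.21, adjusted p 0.77). Cd53 had -3.29, -3.64, -3.46 and -3.29 on the Ts1Cje arrays, against -3.65, -3.30, -3.30 and -3.72 on the wild-type arrays, with a log2 fold change of 0.072 (SE 0.13, adjusted p 0.88). Laptm5 and Inpp5d had log2 fold changes of -0.033 and -0.012, and the second probe of Laptm5 had 0.019. Without Ts1Cje replicate 1 the class had 0.14 for Ptprc, 0.026 for Cd53, -0.084 for Laptm5 and -0.045 for Inpp5d. The score of the class was 0.031 ± 0.12 on the Ts1Cje arrays and -0.031 ± 0.10 on the wild-type arrays (SD, n = 4 each), a difference of 0.062, or 0.0098 without Ts1Cje replicate 1.

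Of the transcription factors, Irf8, which microglia need for their maturation, had 0.27, -0.21, -0.16 and 0.061 on the Ts1Cje arrays, against -0.067, -0.34, -0.11 and -0.16 on the wild-type arrays. Ts1Cje replicates 1 and 4 lay above all wild-type arrays and replicates 2 and 3 within their range, and the log2 fold change was 0.16 (SE 0.12, adjusted p 0.70), or 0.063 without Ts1Cje replicate 1. Ikzf1, which encodes the zinc finger factor Ikaros, was well above background on 3 Ts1Cje arrays and on 0 wild-type arrays with its brighter probe, and was not tested. That probe read -4.63, -4.20, -4.50 and -4.78 on the Ts1Cje arrays, against -5.02, -4.77, -4.85 and -5.30 on the wild-type arrays, so the groups overlapped between Ts1Cje replicate 4 and wild-type replicate 2. The second probe of Ikzf1 was above background on 0 arrays.

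Genes around these markers were read from the same fit. Of 13 transcription factors and ligands of microglia 11 were tested and 0 passed, 1 having an unadjusted p under 0.05. Sall1, a factor that keeps the microglial identity, had -2.15, -2.11, -2.05 and -1.91 on the Ts1Cje arrays, against -1.93, -1.87, -1.77 and -1.95 on the wild-type arrays. Its log2 fold change was -0.18 (SE 0.069, adjusted p 0.53), and the groups overlapped. Il34, the neuronal ligand of Csf1r, had 2.57, 2.53, 2.47 and 2.54 on the Ts1Cje arrays, against 2.65, 2.69, 2.56 and 2.61 on the wild-type arrays, with a log2 fold change of -0.10 (SE 0.048, adjusted p 0.61). Spi1 was well above background on 0 of 8 arrays and Runx1 on 3 Ts1Cje and 0 wild-type arrays. Unlike the members, Runx1 lies on the triplicated part of chromosome 16. The median of the list was -0.038.

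Of 12 complement components, receptors and regulators 9 were tested and 0 passed, 7 being above 0 with a median log2 fold change of 0.12. Cd55, which speeds the decay of complement convertases, had -1.07, -0.98, -1.05 and -1.04 on the Ts1Cje arrays, against -0.82, -0.97, -0.66 and -0.87 on the wild-type arrays. The groups did not overlap, as for 3.7% of all features in that direction, and the log2 fold change was -0.21 (SE 0.069, adjusted p 0.46). C4b, the complement component that C1 cleaves, had 3.58, 2.97, 3.00 and 3.10 on the Ts1Cje arrays, against 3.31, 2.62, 2.65 and 2.80 on the wild-type arrays, with a log2 fold change of 0.32 (SE 0.19, adjusted p 0.65). The first replicate was the highest of its group in both genotypes. With the replicate number as a block in the limma fit the adjusted p was 0.14, so the gene did not pass there either. Without Ts1Cje replicate 1 the log2 fold change was 0.18. The near-identical C4a may share this signal, so the value is uncertain.

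Of 17 genes that mark disease-associated microglia, the state described around amyloid plaques, 14 were tested and 0 passed. The median log2 fold change was 0.040, with 9 genes above 0. Cd63 and Cd9, both tetraspanins, had the smallest p-values, with log2 fold changes of -0.12 (SE 0.053, adjusted p 0.57) for Cd63 and -0.28 (SE 0.12, adjusted p 0.57) for Cd9. That of Cd9 was -0.17 without Ts1Cje replicate 1. Ts1Cje replicate 1 was highest for 7 of the 14 and lowest for 3. Among 26 further surface and signalling genes of microglia, all tested, 0 passed and 16 were above 0. Dock2, among these 16, was well above background on 4 Ts1Cje and 2 wild-type arrays. It was thus kept through the genotype in which it read higher, and no median is given for the list. Lyn, a Src family kinase, had -3.48, -3.32, -3.66 and -3.36 on the Ts1Cje arrays, against -3.65, -3.85, -4.23 and -4.00 on the wild-type arrays, with a log2 fold change of 0.48 (SE 0.13, adjusted p 0.34). The groups overlapped only in that Ts1Cje replicate 3 lay just below wild-type replicate 1.

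Of 15 cytokines and genes of innate sensing 10 were tested and 0 passed, and none had an unadjusted p under 0.05. Nfkbia, the inhibitor of NF-kB, had a log2 fold change of -0.27 (SE 0.14, adjusted p 0.63). The chemokine Ccl2 was well above background on 4 Ts1Cje and 3 of the 4 wild-type arrays, and was thus kept through the genotype in which it read higher. It had -3.69, -4.35, -4.20 and -4.08 on the Ts1Cje arrays, against -4.10, -4.94, -5.33 and -4.15 on the wild-type arrays, with an adjusted p of 0.63, and no size is given for the difference. Il1a, Tnf and Il6 were well above background on 0 arrays and Il1b on 1 Ts1Cje array. The list had 9 genes above 0, Ccl2 among them, and no median is given because it would include Ccl2.

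The only list with genes past the threshold was that of immune receptors and factors encoded on the triplicated part of chromosome 16, which microglia and many other cells express. Of its 6 genes all but the dim Runx1 were tested. Of these 5 genes 4 passed, all higher in Ts1Cje, against the 0.175% of all features called higher. Ifnar1, a chain of the type I interferon receptor, had 2.07, 2.14, 2.01 and 2.15 on the Ts1Cje arrays, against 1.41, 1.57, 1.35 and 1.55 on the wild-type arrays, 1.54-fold higher with an adjusted p of 0.011. Ifnar2, its partner chain, was 1.66-fold higher with an adjusted p of 0.0078. Ifngr2, a chain of the interferon gamma receptor, was 1.45-fold higher with an adjusted p of 0.0081, and the transcription factor Ets2 1.40-fold higher with an adjusted p of 0.0081. Il10rb, a chain of the interleukin-10 receptor, was at 1.52-fold with an adjusted p of 0.080. In all 5 genes every Ts1Cje array lay above every wild-type array, which held for 2.42% of all features. With the replicate number as a block 0 of the 5 passed, the adjusted p-values lying between 0.056 and 0.21. Without Ts1Cje replicate 4 also 0 passed, with a lowest adjusted p of 0.0504, and without Ts1Cje replicate 2 only Ifnar2 and Ifngr2 did. Ets2 did not pass with the array median as centre, nor Ifnar1 with the dimmest probe of a gene. In these and the other alternatives with 1 value per gene, 18 in all, the 5 log2 fold changes stayed above 0, between 0.44 and 0.78. These genes have 3 copies in Ts1Cje, unlike the microglia genes.

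Markers of other cells were read beside the members. Of 8 markers of monocytes and neutrophils 2 were tested. S100a9, a calcium-binding protein abundant in neutrophils, had 2.43, -2.44, -2.45 and -3.44 on the Ts1Cje arrays, against -1.40, -2.20, -1.81 and -2.88 on the wild-type arrays. Its partner S100a8 had 1.35, -4.33, -4.53 and -5.17 on the Ts1Cje arrays, against -3.28, -3.77, -3.36 and -4.46 on the wild-type arrays. S100a8 was well above background on 3 of the 4 Ts1Cje and on all wild-type arrays. Both were thus far above all other arrays on Ts1Cje replicate 1, the array with the high complement and phagocytic scores. Ccr2, the chemokine receptor of blood monocytes, was well above background on 1 array, Plac8 and Retnlg on 1 array each, Ngp on 2 and Chil3 on 5. The summed level of the 2 tested markers, as the log2 of summed linear values, was -3.06 to 2.99 on the Ts1Cje arrays and -2.46 to -1.06 on the wild-type arrays. Their part in the values of the microglia genes on that array was not tested.

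Macrophages of the brain borders share many genes with microglia. Of 8 of their markers 7 were tested and 0 passed. The log2 fold change was above 0 for 6, Lyve1 among them, and no median is given because it would include Lyve1. Stab1, a scavenger receptor, had 0.78, 0.086, 0.21 and 0.30 on the Ts1Cje arrays, against 0.086, -0.22, 0.12 and -0.014 on the wild-type arrays, with a log2 fold change of 0.35 (SE 0.15, adjusted p 0.57), or 0.21 without Ts1Cje replicate 1. Lyve1, a hyaluronan receptor, was well above background on 4 Ts1Cje and 2 of the 4 wild-type arrays, so that it was kept through the genotype in which it read higher. It had -4.09, -4.27, -4.08 and -4.59 on the Ts1Cje arrays, against -4.34, -5.55, -4.26 and -5.07 on the wild-type arrays, with an adjusted p of 0.63, and no size is given for the difference. Cd163, a haemoglobin scavenger receptor, was well above background on 0 arrays. No summed level of the list is given, because it would also include Lyve1. Ts1Cje replicate 1 was highest for 2 of the 7 genes.

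Other cell types also differed on Ts1Cje replicate 1. It was highest for 4 of 6 endothelial markers and for 2 of 5 lymphocyte markers, and lowest for 4 of 6 astrocyte markers, 5 of 6 oligodendrocyte markers and 2 of 3 haemoglobin genes. Between the genotypes none of these lists held a gene past the threshold. The smallest p-values belonged to Gja1, an astrocyte gap junction protein, with a log2 fold change of -0.31 (SE 0.11, adjusted p 0.49), Mbp, the myelin basic protein, with -0.27 (SE 0.10, adjusted p 0.50), and Tek, an endothelial receptor, with 0.16 (SE 0.067, adjusted p 0.57). The oligodendrocyte markers went both ways, 3 being above 0 and 3 below. Mobp, another myelin protein gene, had 6.19, 5.14, 5.00 and 4.63 on the Ts1Cje arrays, against 5.32, 4.30, 4.46 and 4.41 on the wild-type arrays. Its log2 fold change was 0.62 (SE 0.35, adjusted p 0.65), or 0.30 without Ts1Cje replicate 1, its highest array. The 6 neuronal markers had a median of 0.0090 and Ts1Cje replicate 1 was highest for 1 of them. Summed levels were 6.17 to 6.28 on the Ts1Cje arrays and 6.22 to 6.33 on the wild-type arrays for astrocyte markers, and 7.79 to 8.00 on the Ts1Cje arrays and 7.82 to 7.96 on the wild-type arrays for oligodendrocyte markers. For endothelial markers they were 4.31 to 4.66 on the Ts1Cje arrays and 4.27 to 4.53 on the wild-type arrays. Of the lymphocyte markers, Cd3g, Cd8a and Ms4a1 were well above background on 0 arrays. Cd79b was well above background on 2 Ts1Cje and 4 wild-type arrays, and was thus kept through the genotype in which it read higher. The haemoglobin gene Hbb-bs was well above background on 4 Ts1Cje and 2 wild-type arrays, and was likewise kept through the genotype in which it read higher. No summed level is given for lymphocyte markers or haemoglobin genes, because it would include Cd79b or Hbb-bs. The part of these cell types in the values of the microglia genes was not tested.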

How the data were processed

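Hippocampal total RNA, 0.1 µg per sample per the labels' protocols, was labelled with Cy3 and hybridised to 8 one-colour Agilent arrays. The authors deposited linear spot intensities from Agilent Feature Extraction 10.10.1.1, per the file headers, including a processed signal that is background-corrected and carries no scaling between arrays. All arrays lay on 1 slide and in 1 scan. Ts1Cje arrays occupied columns 2 and 4 of the slide and wild-type arrays columns 1 and 3, so the effects of column and genotype cannot be told apart.

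After removal of control spots and outlier flags, the log2 of the deposited processed signal was averaged per probe and centred on the 75th percentile per array. A probe was kept if every array of one genotype, or of both, had it well above background (32596 of 55681 probes). RefSeq accessions named 27235 probes (GRCm38.p6 table, used for names, chromosomes and promoters; the array was designed on mm9 per the file headers). The brightest kept probe stood for a gene. The resulting 24025 features were fitted in R 4.3.3 with limma 3.58.1 (eBayes after lmFit, without a block) and called at a Benjamini-Hochberg adjusted p under 0.05. On simulated data with 200 changed features this step recovered 66% of 1.5-fold and 91% of 2-fold changes, with 8 false calls. The simulated noise was independent between features, with no deviation shared across an array. It gave 165 calls, against 47 in these data, so the recovery on the real arrays may be lower.

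The members and lists were chosen with earlier results of these data known. Every member is named. Values per array are given for the 2 members of smallest p in each class, for those with groups that do not overlap and for 11 fixed genes, and each companion list gives its called genes, or otherwise its 2 genes of smallest p. Some items that this rule would name are not reported here. Alternatives were normexp (offset 50, on median spot and background signals, since mean signals are not in these files), quantile and median scaling, other filters, other probe rules, variance priors, array weights, a replicate block and leaving out each array.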

Additional observations from a re-analysis of the deposited data

Results flagged for a closer look

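In each group of 4 arrays a level was singled out where its gap to the nearest other array took up a larger part of the whole range of the group than Dixon's 95% critical value allows. Over 74 groups of 4, from genes and scores, 3 were singled out, against 3.7 that chance alone would give at about 1 in 20. On Ts1Cje replicate 1, C1qa had a level of 2.77, with the nearest Ts1Cje array at 2.13. On the same array C1qb had 2.29, with the nearest Ts1Cje array at 1.63. On wild-type replicate 3, Slco2b1 had 0.27, with the nearest wild-type array at 0.45.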

How the results depend on the processing

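In none of the 19 alternatives did a microglia gene pass the threshold, the lowest adjusted p being 0.23 for Selplg. The count of calls over all 24025 features, 47, moved to 25 with the array median as centre, 23 without a filter on dim probes, 84 with array weights and 71 with a trended, robust prior. Leaving out 1 array at a time gave 4 to 44 calls over all features, namely 17 when Ts1Cje replicate 2 was omitted, 25 when Ts1Cje replicate 3 was, 4 when Ts1Cje replicate 4 was, and 24 when wild-type replicate 2 or 4 was. With the replicate number as a block 1 feature and 0 microglia genes were called. The deviations of same-numbered arrays correlated at 0.24, 0.19, 0.11 and 0.050 for replicates 1 to 4, of which the last is under the minimum of 0.1 asked of every pair, so that the samples were taken to share only a number. Ts1Cje replicates 1, 2 and 4 correlated best with their own number, and Ts1Cje replicate 3 with wild-type replicate 4 (0.14).

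The class score differences had ranges over 16 alternatives of -0.018 to 0.063 for all 31 genes, -0.11 to -0.0002 for homeostatic, -0.075 to 0.15 for complement, 0.0059 to 0.15 for phagocytic and 0.0098 to 0.10 for shared leukocyte genes. The transcription factor score difference ranged from 0.063 without Ts1Cje replicate 1 to 0.34 without Ts1Cje replicate 4. In the latter Ikzf1 passed the filter and entered the score. Ikzf1 was well above background on 3 Ts1Cje and 0 wild-type arrays, so it was kept there through the genotype in which it read higher. The filter thus favoured a higher score in Ts1Cje, and the 0.34 is not read as the size of a genotype difference. Irf8 alone had a log2 fold change of 0.13 without Ts1Cje replicate 4. Signal over background kept Ikzf1, Spi1, Il1a, Tnf and Il6 out of the test.

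Of 558 log2 fold changes of single members under an alternative, 42 in 20 genes had another sign than the reported value, none larger than 0.19 in size. With array weights these were P2ry12 at 0.071, P2ry13 at 0.0081, Siglech at -0.0059, C1qc at -0.015, Itgam at -0.0065 and Cd14 at -0.038. With the array median as centre they were Siglech at -0.018, C1qc at -0.0078, Itgam at -0.040 and Aif1 at -0.014. With the mean over probes Csf1r was at -0.010 and Itgam at -0.033. With the dimmest probe, an alternative chosen after seeing the data, Csf1r was at -0.059, Olfml3 at -0.090, Slco2b1 at 0.018, Itgam at -0.034 and Laptm5 at 0.019. Leaving out 1 array at a time, the ranges that crossed 0 were Cx3cr1 -0.10 to 0.011, P2ry12 -0.22 to 0.13, P2ry13 -0.18 to 0.10, Siglech -0.056 to 0.12, Slco2b1 -0.13 to 0.022, Hpgds -0.0059 to 0.19, C1qa -0.079 to 0.17, C1qb -0.068 to 0.19, C1qc -0.078 to 0.11, Itgam -0.054 to 0.065, Ctss -0.076 to 0.18, Cd14 -0.19 to 0.20, Fcgr3 -0.070 to 0.30, Fcgr2b -0.074 to 0.24, Aif1 -0.049 to 0.10, Laptm5 -0.084 to 0.0077, Cd53 -0.0041 to 0.15 and Inpp5d -0.056 to 0.040. The cause was not tested.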

Other observations

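Among all features, those farthest from the other arrays on Ts1Cje replicate 1 were looked up after the pattern in the microglia genes had been seen. Besides S100a9, Lcn2, a secreted siderophore-binding protein of neutrophils and reactive astrocytes, had 1.92 on Ts1Cje replicate 1, against 1.31 on wild-type replicate 1 and -2.62 to -1.63 on the other 6 arrays. Lrg1, a leucine-rich glycoprotein of activated endothelium, had 2.02 on Ts1Cje replicate 1, against 0.50 on wild-type replicate 1 and -1.85 to -1.42 on the other 6. Ch25h, the cholesterol 25-hydroxylase induced by interferon, had -0.26 on Ts1Cje replicate 1, against -1.55 on wild-type replicate 1 and -3.87 to -3.07 on the other 6. In these 3 genes the first replicates of both genotypes were the highest arrays, as they were for S100a9, Lrmda, the C1q genes and Cd14. It was not so in Ttpa and Sypl2, which were also among the farthest above. They had -1.45 and -1.43 on Ts1Cje replicate 1, but wild-type replicate 1, at -4.18 and -4.07, was not next.

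Among the features lowest on the same array were Fabp7, a fatty acid binding protein of radial glia and astrocytes, with 0.76 on Ts1Cje replicate 1 against 2.17 to 2.82 on the other 7 arrays, and Mki67, a marker of dividing cells, with -3.97 against -2.52 to -1.99. No test was made of these values, which were chosen for their distance.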
